A study of Mus musculus with 6 samples.

Results

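The regions described here are 1525 wide H3K27ac peaks that were called in the mouse Ewing sarcoma line ES49 and not in its counterpart ES48. They were chosen by peak position alone: an ES49 H3K27ac peak on chromosomes 1 to 19, at least 800 bp wide, sharing no base with an ES48 H3K27ac peak and with no ES49 H3K27me3 peak within 1 kb. The whole ES49 H3K27ac list has 29652 peaks, and 14900 of them meet the conditions on chromosome and width. They are called ES49-only wide peaks below.

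Ewing sarcoma is driven by a fusion of EWSR1 with an ETS factor gene, most often FLI1, and the fusion protein binds DNA through the ETS domain of FLI1. Acetylation of lysine 27 on histone H3 (H3K27ac) is laid down by the p300 and CBP acetyltransferases at enhancers and promoters in use. Trimethylation of the same residue (H3K27me3) is written by Polycomb repressive complex 2, and a single histone tail cannot carry both marks. Enhancers differ more between cell types than promoters do, and long or clustered stretches of H3K27ac often mark genes of cell identity.

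Both lines are EWS-FLI1-induced murine Ewing sarcoma cells on a Balb/c background, grown without treatment. Each is a single line with 1 library per antibody: H3K27ac in ES49 and ES48, H3K27me3 in ES49, and FLAG-tagged EWS-FLI1 in ES49 and ES48. With no replicate libraries, every comparison below is a description of these libraries. Intervals are 95% Clopper-Pearson intervals that cover counting error only, and they are too narrow where peaks lie in runs. Read counts are not in the peak lists, so depth is unknown. Positions are in mm9, counted from 1. No mm9 annotation or sequence was used, so regions are given by position, and their genes and DNA sequence were not analysed here.

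Absence from ES48 was a minority state that became rarer with width. Of all 29009 ES49 H3K27ac peaks on chromosomes 1 to 19, 31.7% overlapped no ES48 peak. Among those of at least 800 bp the share was 10.3%, or 1542 of 14900. The condition on H3K27me3 then took away only 17 peaks, 14 of which overlapped that mark. The rule used these values, so they describe the choice of regions. A wider peak also has more bases with which to share 1 bp. Part of the fall with width is thus set by the overlap condition. A further 7654 ES49-only peaks were narrower than 800 bp. The narrowest regions inside the limit were 800 to 801 bp wide, with scores of 117.73 to 220.45, and the widest peaks just outside it were 798 to 799 bp wide, with scores of 107.39 to 190.9.

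As a set the regions were narrower than the 13245 wide ES49 peaks that overlapped ES48 and had no H3K27me3 within 1 kb. Those are called common wide peaks. The median width was 1117 bp (quartiles 934 and 1451) for the regions and 1682 bp (1232 and 2316) for the common wide peaks. All ES49 H3K27ac peaks on these chromosomes, of any width, had a median of 836 bp. The median score, the peak caller's own value, was 232.47 in the ES49-only wide peaks and 866.6 in the common wide peaks. Width and score rose together among the 1525 regions (Spearman's rho 0.78 across regions of 1 library, as a description).

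Their width of at least 800 bp was set by the rule, and beside the common wide peaks they were lower in score. By score, 74.6% of the ES49-only wide peaks were in the upper 50% of the ES49 list (72.4 to 76.8), against 95.6% of the common wide peaks (95.2 to 95.9). In the upper 10% were 10 of 1525 (0.656%, 0.315 to 1.203) and 2912 of 13245 (22.0%, 21.3 to 22.7). Only 136 of the regions (8.92%, 7.53 to 10.5) reached 2000 bp and 5 reached 4000 bp. Together they covered 1.96 Mb, or 5.57% of the acetylated length of ES49 on these chromosomes.

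ES48 had more peaks of the mirror kind, but the number turned on the width limit. With 800 bp in each list there were 1525 ES49-only and 3369 ES48-only wide peaks, both with no ES49 H3K27me3 within 1 kb. Before that condition, 3551 of the 17986 ES48 H3K27ac peaks of at least 800 bp (19.7%) overlapped no ES49 peak. ES48 peaks were wider as a whole: 51.4% of the ES49 list and 71.1% of the ES48 list passed 800 bp. A limit of 1442 bp in ES48, past which 51.4% of its list lies, left 1426 ES48-only peaks, 10.97% of the 13002 past that limit. The ES49-only wide peaks were 10.2% of the 14900 ES49 peaks past 800 bp. This second limit was set after the data were seen.

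**Figure D1:**
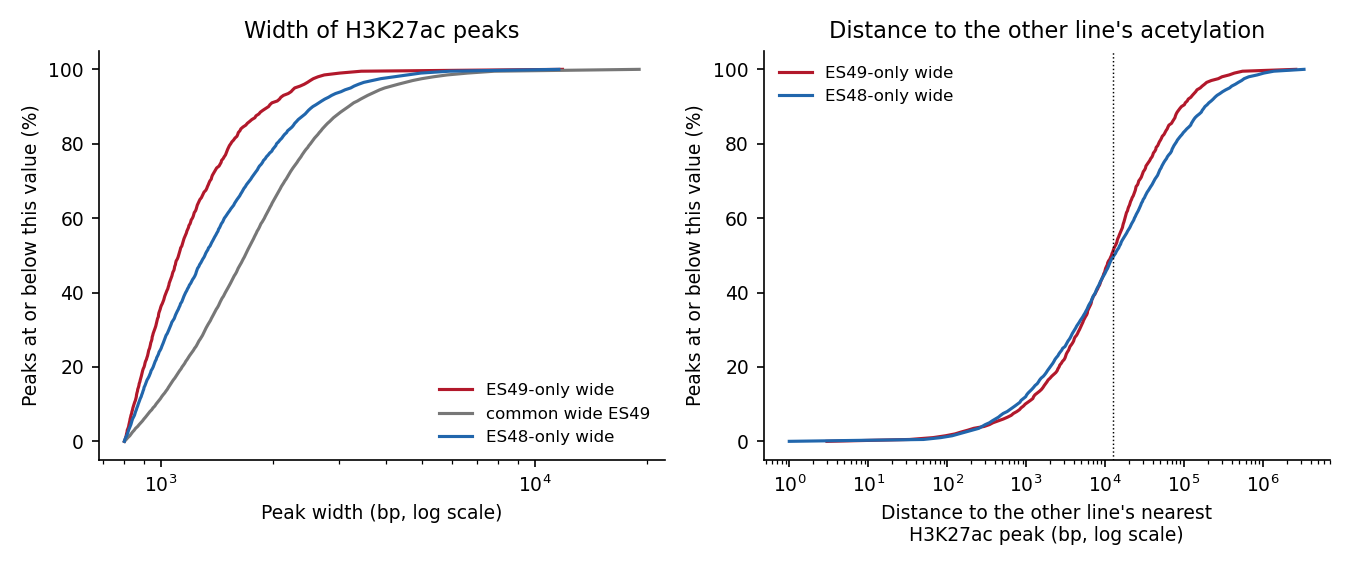
Cumulative share of peaks (%) by peak width in bp on a log axis (left) and by distance in bp to the nearest H3K27ac peak of the other line, also on a log axis with a dotted line at 12500 bp (right). ES49-only wide peaks are in red, ES48-only wide peaks in blue and common wide ES49 peaks in grey. The red width curve lies left of the others (median 1117 bp), and the 2 distance curves meet near 12500 bp and part beyond it.

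The regions were split about evenly between places within 12500 bp of ES48 acetylation and places farther from it. The median distance to the nearest ES48 H3K27ac peak was 12.1 kb (quartiles 3.52 and 35.5 kb). Within 1 kb of an ES48 peak were 157 of the regions (10.3%, 8.81 to 11.9), and 750 (49.2%, 46.6 to 51.7) were more than 12500 bp away. More than 50 kb away were 292 (19.1%, 17.2 to 21.2), more than 100 kb away 146 (9.57%, 8.14 to 11.2) and more than 500 kb away 10 (0.656%). The nearest ES48 peak itself overlapped ES49 H3K27ac in 1336 of 1525 cases (87.6%, 85.8 to 89.2). Such overlap is common among ES48 peaks in any case: of those of at least 800 bp, only 19.7% overlapped no ES49 peak. Of the nearest ES48 peaks, 74.6% were at least 800 bp wide. The share over ES48 peaks of every width was not computed.

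With 800 bp in both lists, the ES48-only wide peaks were placed alike at short range and differently at long range. More than 12500 bp from any ES49 peak were 50.5% of them (48.8 to 52.2), close to the 49.2% of the ES49-only regions. More than 100 kb from the other line's acetylation were 9.57% of the ES49-only and 16.7% of the ES48-only wide peaks (15.4 to 17.98), and the intervals do not overlap. These shares were not computed with the limit of 1442 bp in ES48. By width, the share of ES49-only regions far from ES48 acetylation did not move in one direction. Those of 800 to under 1000 bp were more than 12500 bp from ES48 acetylation in 45.3% of cases (41.1 to 49.6), those of 1000 to under 1500 bp in 52.0% (48.1 to 56.0), those of 1500 to under 2000 bp in 53.4% (46.3 to 60.4) and those of at least 2000 bp in 44.9% (36.3 to 53.6).

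Joining ES49 H3K27ac peaks less than 12500 bp apart, the usual distance for stitching enhancers, placed each region in a domain. In 818 cases (53.6%, 51.1 to 56.2) the domain also held a peak common to both lines, and such domains had a median of 8 peaks. The joining used ES49 peaks alone, so the common peak can lie away from the region itself. Only 31.7% of all ES49 H3K27ac peaks on these chromosomes overlapped no ES48 peak. A domain of many peaks is thus likely to hold a common one, and the share for other ES49 peaks was not computed. In 658 cases (43.1%, 40.6 to 45.7) the domain had no common peak and ES48 had no peak within 12500 bp of the region. The remaining 49 had an ES48 peak within 12500 bp and no common peak in their domain. In 329 cases (21.6%, 19.5 to 23.7) the region was the only peak of its domain and ES48 had none within 12500 bp. The median score was 221.6 in domains with a common peak and 258 in ES49-only domains away from ES48 peaks. Of the ES48-only wide peaks, 49.3% (47.6 to 51.0) lay in an ES48 domain with a common peak. With ES48 peaks joined in the same way, 158 of the 1525 regions (10.4%, 8.88 to 12.0) lay inside the span of an ES48 domain.

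The stretches around the regions were compared by their acetylated length in both lines. Within 50 kb on either side, the region included, the median acetylated length was 7.22 kb in ES49 and 4.77 kb in ES48. Around the common wide peaks the order was the other way, with 6.23 kb in ES49 and 8.04 kb in ES48. The rule fixes at least 800 bp of ES49 and 0 of ES48 acetylation at the region itself. With each peak itself left out of the window, the medians were 5.91 kb in ES49 and 4.77 kb in ES48 around the regions. Around the common wide peaks they were 4.37 kb in ES49 and 6.27 kb in ES48. Other regions in the window were kept, and 40.5% of the regions had another within 50 kb. The rule fixes those in the same way, so these medians are still partly set by it.

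Among the 10 widest and the 10 highest-scoring regions, 5 were in both groups. Of the 10 widest, 8 were more than 12500 bp from ES48 acetylation, and 10 of the 10 highest-scoring were. The widest of all was chromosome 1 78183835 to 78195698, at 11864 bp. Its score of 3100 is the level at which high scores in this list flatten. The nearest ES48 peak lay 17.7 kb away and was small, at 386 bp and a score of 51.82, near the lowest score of the lists. With its neighbour it formed a run of 2 regions covering 12939 bp. This run sat in a 630.3 kb stretch without ES48 acetylation that held 8 ES49 peaks, 3 of them ES49-only wide peaks.

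The second widest, chromosome 16 43500168 to 43509408, was 9241 bp wide, also with a score of 3100. It led the run of regions with the most covered length, chromosome 16 43500168 to 43517017, in which 3 regions covered 13472 bp and no ES48 peak fell. Both lines were acetylated on either side of it: within 50 kb there were 14 ES49 peaks (25.2 kb) and 2 ES48 peaks (4.90 kb). H3K27me3 was 1898 kb away.

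Other regions in both groups differed in their surroundings. Chromosome 2 91769832 to 91774168 (4337 bp, score 3100) lay at the edge of a dense domain of 27 ES49 peaks. ES48 had 9 peaks within 50 kb of it, the nearest 12.8 kb off, so that ES49 acetylation extended past the common part. Chromosome 4 103111038 to 103115268 (4231 bp, score 2442.43) stood alone in its domain, with the nearest ES48 peak 96.2 kb away. Chromosome 2 44963566 to 44966967 (3402 bp, score 3100) was 180.2 kb from ES48 acetylation and had 3 ES49 peaks and 0 ES48 peaks within 50 kb.

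**Figure D2:**
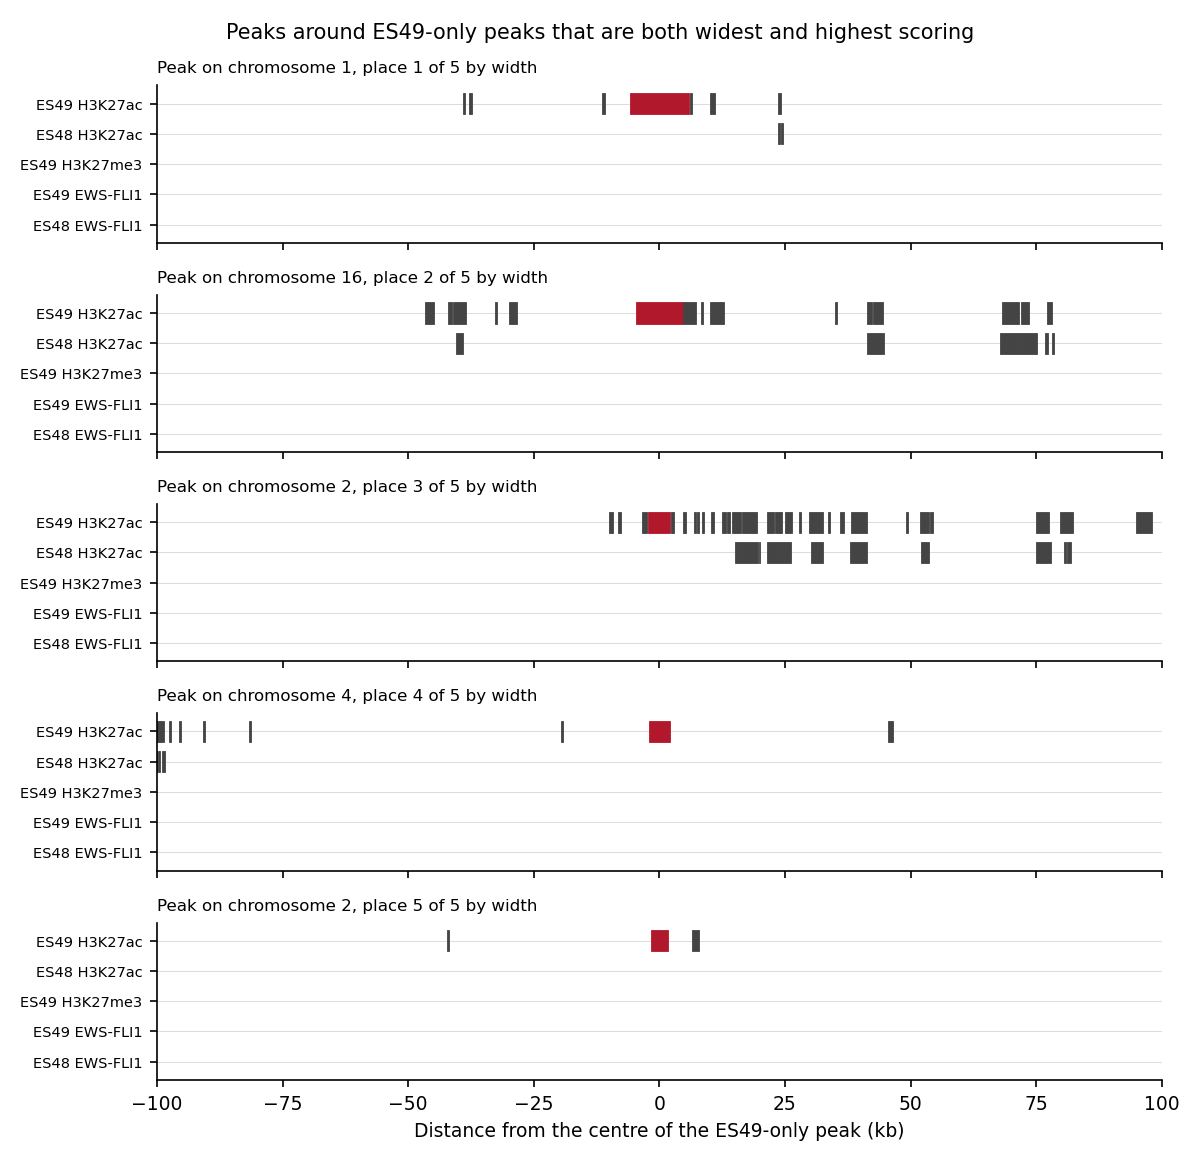
Peaks within 100 kb of the 5 regions that are both among the 10 widest and the 10 highest-scoring ES49-only wide peaks, by distance from the region's centre in kb, with 1 track per peak list. The region itself is in red, other H3K27ac peaks in dark grey; H3K27me3 would be in green and EWS-FLI1 in purple, and the 5 stretches hold neither. The upper of the 2 regions on chromosome 2 borders a dense block of peaks in both lines, and the lower has ES49 peaks alone.

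The highest score among the regions, 3119.97, belonged to chromosome 13 46058367 to 46061513, a 3147 bp peak ranked 74 in the ES49 list. The nearest ES48 acetylation was 571.5 kb away. It lay in a 1277 kb stretch without an ES48 peak that held 28 ES49 peaks covering 22306 bp, of which 7 were ES49-only wide peaks covering 12575 bp. The same stretch held chromosome 13 45787466 to 45790960 (3495 bp, score 1141.55), the eighth widest. No other stretch between neighbouring ES48 peaks held more of the regions. The stretch from chromosome 12 113385448 to 113728895 held 7 as well, covering 10186 bp among 18 ES49 peaks. At chromosome 11 103080274 to 103096372, by contrast, 6 regions covering 7899 bp fitted into a gap of 16.1 kb between 2 ES48 peaks.

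High-scoring regions away from these runs included chromosome 8 60130215 to 60132699 (2485 bp, score 3100), the only ES49 H3K27ac peak within 50 kb and 137.7 kb from ES48 acetylation. Chromosome 11 51249372 to 51251326 (1955 bp, score 3100) was 145.9 kb from it. The ES48 peak nearest to this region, at chromosome 11 51397234 to 51399593, scored 3100 in its own list.

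Of the 10 regions farthest from ES48 acetylation, 9 were under 1500 bp, as were 77.6% of all the regions, and 1 of the 10 was also among the widest or highest-scoring, the chromosome 13 peak above. Chromosome 2 66018379 to 66019281 was the farthest, 2604 kb from an ES48 peak, at 903 bp and a score of 140.45. Chromosome 14 112074613 to 112075881 followed at 2231 kb, with a width of 1269 bp and a score of 305.19. The third, chromosome 2 98506320 to 98507564, was 1245 bp wide with a score of 71.29, rank 21522 of 29652. That is low for its width, as regions of 1000 to under 1500 bp had a median score of 245.17. Neither input DNA nor a list of artefact-prone positions was used here, so whether this peak is an artefact was not tested.

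Most regions stood apart from one another. Counting regions less than 12500 bp apart as a run, 359 of 1525 (23.5%, 21.4 to 25.8) had another region in their run, in 152 runs of 2 or more, of which 37 had 3 or more. The ES48-only wide peaks did so in 36.3% of cases (34.7 to 38.0). They are also more numerous, and the part of list length in this difference was not tested. The largest run, with 7 regions, was chromosome 11 103081496 to 103100822, where 8817 bp were covered and 2 ES48 peaks lay between the regions. The other runs among the first 5 by covered length were chromosome 13 83859993 to 83879189 (4 regions, 7544 bp) and chromosome 2 91761999 to 91785337 (4 regions, 7125 bp).

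The chromosomes differed in how much of their wide ES49 acetylation was ES49-only. Over all 19, ES49-only wide peaks were 1525 of the 14770 wide ES49 peaks clear of H3K27me3 (10.3%, 9.84 to 10.8). Chromosome 11 held 230 of them, 14.7% of its wide peaks (12.97 to 16.5), and chromosome 13 held 76, or 14.2% (11.3 to 17.4). Chromosome 10 followed with 12.6% (10.4 to 15.2). At the low end were chromosome 19 with 11 of 391 (2.81%, 1.41 to 4.98), chromosome 17 with 6.31% (4.61 to 8.41), chromosome 7 with 6.40% (4.98 to 8.09) and chromosome 14 with 6.81% (4.61 to 9.63). Without chromosome 11 the share over the others was 9.81%.

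The ES49-only and ES48-only shares were set side by side by chromosome, first with 800 bp in both lists. Chromosome 19 had 2.81% ES49-only and 26.7% ES48-only wide peaks (23.2 to 30.5). Chromosome 11 had 14.7% and 12.98% (11.3 to 14.8), and it was the only autosome with the larger share in ES49 at this limit. Over all ES48 wide peaks clear of H3K27me3 the ES48-only share was 19.1%. Chromosome 13 had 14.2% ES49-only and 21.2% ES48-only peaks (18.1 to 24.6), an interval that holds that 19.1%. Chromosome 7 was low in both, with 6.40% and 15.7% (13.7 to 17.8). Across the 19 chromosomes the 2 shares had Spearman's rho of -0.52 and Pearson's r of -0.59, as a description, with both shares taken from the same pair of lists. Without chromosome 11 they were -0.44 and -0.51. With the limit of 1442 bp in ES48, 7 of the 19 chromosomes had the larger share in ES49, and rho and r were -0.40 and -0.51. Chromosome 11 then had 14.7% ES49-only and 7.49% ES48-only peaks (6.05 to 9.16), and chromosome 19 had 2.81% and 17.3% (13.8 to 21.2).

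The width of peaks common to both lines moved with the ES49-only share across chromosomes. Among 13143 pairs of common peaks that met one to one, over all chromosomes, the ES49 peak was narrower, with a median width ratio of 0.790 (ES49 over ES48). By chromosome the ratio ran from 0.685 on chromosome 19 to 0.857 on chromosome 10, with 0.825 on chromosome 11 and 0.831 on chromosome 13. It went with the ES49-only share at Spearman's rho 0.80 and Pearson's r 0.82 over 19 chromosomes, and at 0.80 and 0.82 without chromosome 11. These pairs are not among the regions. Those with an ES49 peak of at least 800 bp and clear of H3K27me3 are, however, in the total behind the ES49-only share. Peak widths also bear on the 800 bp limit and on overlap. The width ratio is thus not independent of the share, and the points share the libraries. The ratio of H3K27ac peak numbers by chromosome, ES49 over ES48, also went with the share. Spearman's rho was 0.74 and Pearson's r 0.80 over 19 chromosomes. DNA copy number was not measured in these data, and its part in the chromosome differences was not tested.

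**Figure D3:**
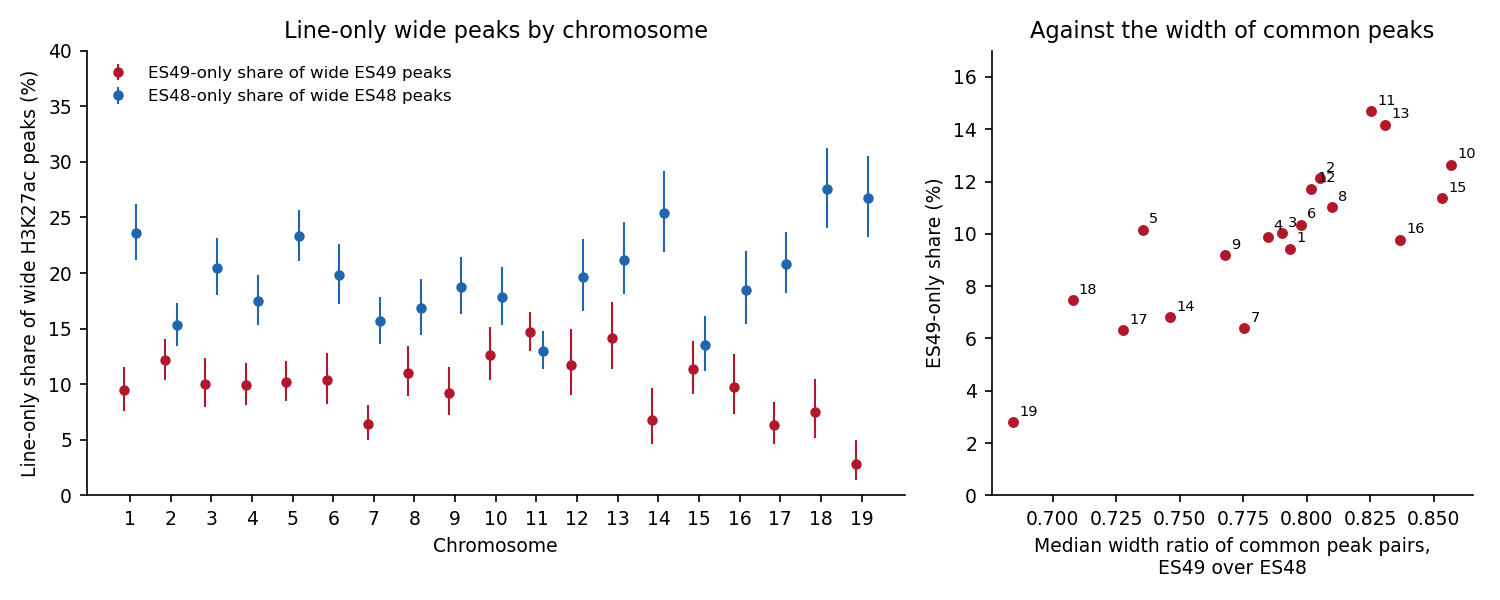
Line-only share (%) of the wide H3K27ac peaks clear of H3K27me3 by chromosome, ES49-only in red and ES48-only in blue, with 95% Clopper-Pearson intervals (left), and the ES49-only share (%) against the median width ratio of common peak pairs, ES49 over ES48, with 1 numbered point per chromosome (right). Chromosome 19 is lowest for ES49 at 2.81%, with 800 bp in both lists chromosome 11 is the only one where the ES49 share is above the ES48 share (7 are with 1442 bp in ES48), and the points on the right climb from chromosome 19 to the upper right.

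The share was not even along chromosome 11. In 10 Mb bins with at least 20 wide ES49 peaks, the median over 206 bins was 9.17% and the range 0 to 33.3%. On chromosome 11 the first 50 Mb held 6 regions among 208 wide ES49 peaks (2.88%, 1.07 to 6.17). From 50 to 90 Mb there were 56 of 523 (10.7%, 8.19 to 13.7), and from 90 to 130 Mb 168 of 835 (20.1%, 17.5 to 23.0). These bounds were set after the bins were seen. The ES48-only share in the same stretches was 19.5% (15.0 to 24.6), 10.2% (7.78 to 13.02) and 12.6% (10.2 to 15.2). Acetylation as a whole was denser in the last stretch, with 58.1 ES49 and 33.3 ES48 peaks per Mb, against 7.45 ES49 and 8.18 ES48 peaks per Mb in the first. These densities are over the 31.6 Mb and 47.0 Mb between the outermost peaks of each stretch. Common peaks had width ratios of 0.781, 0.829 and 0.841 in the 3 stretches, so the ratio moved in the same direction.

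Elsewhere the highest bins were scattered. The bin from 70 to 80 Mb of chromosome 3 had 8 of 24 (33.3%), that from 40 to 50 Mb of chromosome 13 had 20 of 77 (26.0%), that from 90 to 100 Mb of chromosome 6 had 11 of 45 (24.4%), and that from 110 to 120 Mb of chromosome 12 had 21 of 86 (24.4%). The chromosome 13 bin holds the long stretch around the highest-scoring region.

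**Figure D4:**
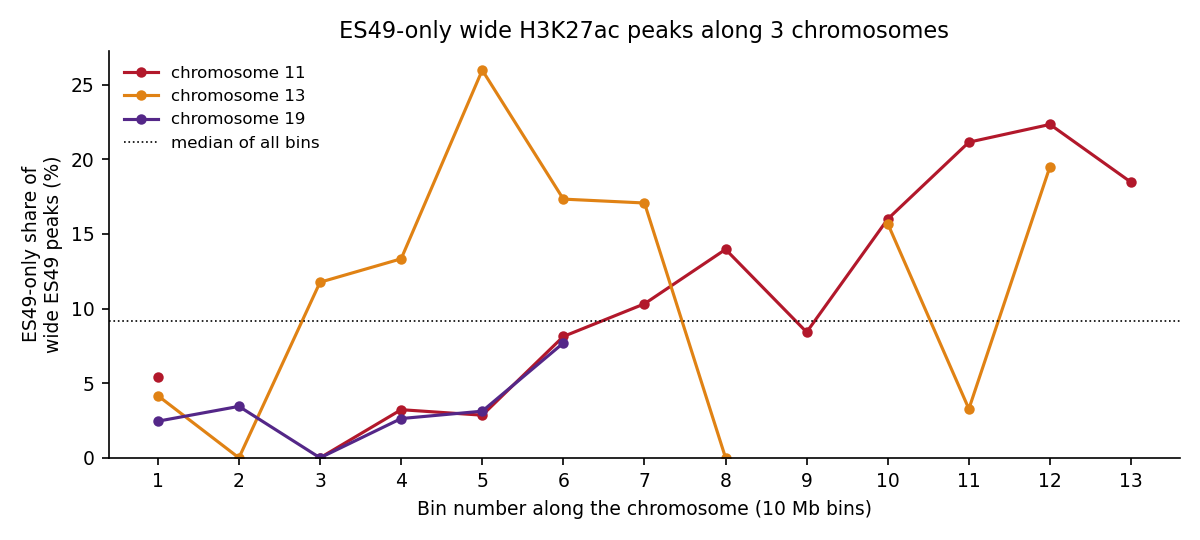
Share (%) of wide ES49 H3K27ac peaks that are ES49-only in consecutive 10 Mb bins of chromosomes 11, 13 and 19, for bins with at least 20 such peaks; the dotted line is the median of all 206 bins (9.17%). Chromosome 11 reaches 22.3% in bin 12, chromosome 13 reaches 26.0% in bin 5, and chromosome 19 stays under the median.

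EWS-FLI1 binding was not used to choose the regions. None of the 1525 overlapped an ES49 EWS-FLI1 peak, against 45 of the 13245 common wide peaks (0.340%, 0.248 to 0.454). Within 10 kb of an ES49 EWS-FLI1 peak were 5 of the regions (0.328%, 0.107 to 0.763) and 99 common wide peaks (0.747%, 0.608 to 0.909). Over all ES49 H3K27ac peaks on these chromosomes that share was 0.720%. Within 50 kb were 1.90% of the regions (1.28 to 2.72), 1.52% of the common wide peaks (1.32 to 1.74) and 1.72% of all ES49 H3K27ac peaks. Within 100 kb were 2.62% of the regions (1.88 to 3.55), 2.37% of the common wide peaks (2.12 to 2.64) and 2.63% of all. The regions were thus lower than the common wide peaks at 10 kb and higher at 50 and 100 kb, with overlapping intervals at each distance. A count of 0 allows a share of up to 0.197% by the limit of 3 counts and 0.242% by the Clopper-Pearson interval. That interval ended just under the one of the common wide peaks and overlapped that of all ES49 H3K27ac peaks (0.248%, 0.194 to 0.312). The list is short, with 335 ES49 EWS-FLI1 peaks on chromosomes 1 to 19. Of these, 0 met ES49-only and 49 met common wide peaks, and 4 lay within 10 kb of an ES49-only and 75 within 10 kb of a common wide peak. The regions are also narrower than the common wide peaks and cover 1.96 Mb against 26.0 Mb. Per Mb covered, the regions had 0 peaks that overlapped ES49 EWS-FLI1 and the common wide peaks had 1.73.

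The region nearest to ES49 EWS-FLI1 was chromosome 2 5302331 to 5304485, a 2155 bp peak with a score of 970.7 that lay 292.0 kb from ES48 acetylation. EWS-FLI1 was bound 1.80 kb from it at 5300318 to 5300532 in ES49, with a score of 56.15, and at 5300259 to 5300426 in ES48, with a score of 72.21. EWS-FLI1 was thus called here in both lines, and the nearest ES49 H3K27ac was 1.80 kb from the ES49 EWS-FLI1 peak. The ES49 score was below the lower quartile of its list (62.3). The other 4 regions within 10 kb, 3 on chromosome 11 and 1 on chromosome 10, were 574 to 1818 bp from an ES48 H3K27ac peak. There the EWS-FLI1 peak lay in a neighbouring ES49 H3K27ac peak. The EWS-FLI1 scores at these 4 regions ran from 55.59 to 68.4, below the median of 83.42 over that list (quartiles 62.3 and 140.3).

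More of the regions lay near EWS-FLI1 peaks of ES48 than of ES49, from a list of 410 peaks on these chromosomes. Within 10 kb of an ES48 EWS-FLI1 peak were 22 of the regions (1.44%, 0.906 to 2.18), 109 common wide peaks (0.823%, 0.676 to 0.992) and 0.965% of all ES49 H3K27ac peaks. Among the ES48-only wide peaks 36 (1.07%, 0.750 to 1.48) were. Within 50 kb were 69 of the regions (4.52%, 3.54 to 5.69) and 393 common wide peaks (2.97%, 2.68 to 3.27). Within 100 kb were 122 of the regions (8%, 6.69 to 9.48) and 747 common wide peaks (5.64%, 5.25 to 6.05). The intervals of these sets do not overlap at 50 and 100 kb and overlap at 10 kb. Several of the 22 regions within 10 kb lay on chromosome 11, which held 15.1% of all the regions. The shares were not computed without that chromosome, so the part of chromosome make-up in this difference was not tested. Over all ES49 H3K27ac peaks the shares were 3.54% within 50 kb (3.33 to 3.76) and 6.40% within 100 kb (6.13 to 6.69), and these intervals overlap those of the regions, as do those of the ES48-only wide peaks. The 1 region that overlapped such a peak was chromosome 11 119860080 to 119861056, where the EWS-FLI1 peak was 148 bp wide with a score of 58.91. The 21 ES48 EWS-FLI1 peaks nearest to these 22 regions had scores of 50.54 to 72.4, where that list has a median of 57.5 and quartiles of 54.51 and 66.5, and 1 of the 21 was also called in ES49.

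**Figure D5:**
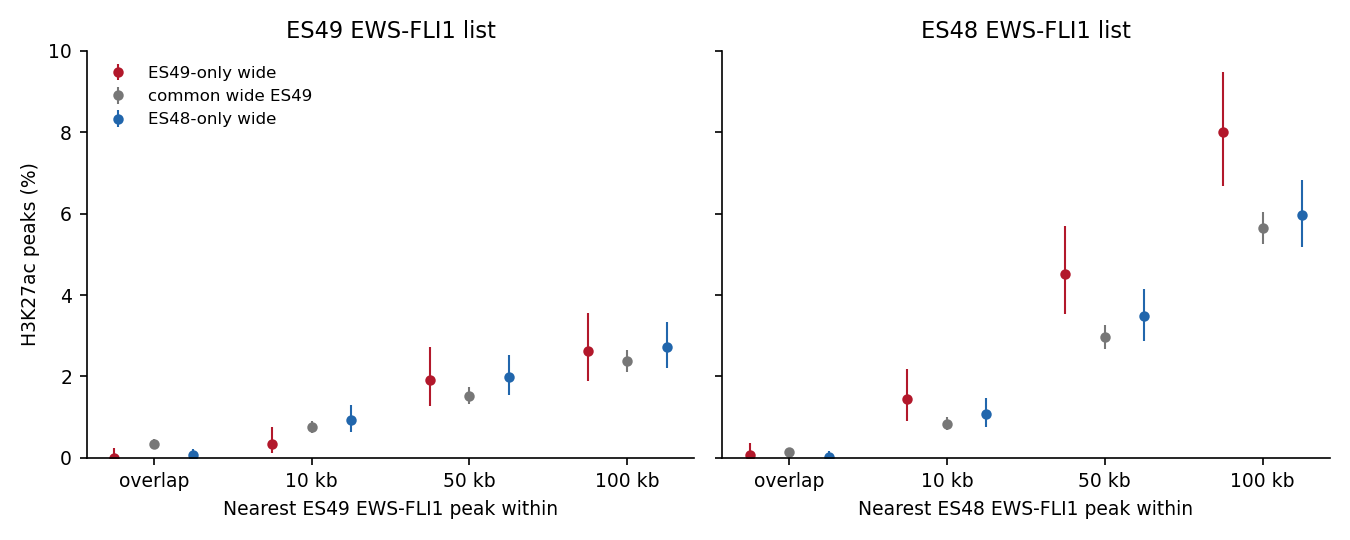
Share (%) of ES49-only wide (red), common wide ES49 (grey) and ES48-only wide (blue) H3K27ac peaks that overlap an EWS-FLI1 peak or have one within 10, 50 or 100 kb, for the ES49 list (left) and the ES48 list (right), with 95% Clopper-Pearson intervals. At most 8% of any set lay within 100 kb, and no ES49-only wide peak overlapped ES49 EWS-FLI1.

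Distance to Polycomb chromatin was like that of common acetylation beyond the 1 kb that the rule fixed. The median distance to ES49 H3K27me3 was 178.7 kb for the ES49-only wide peaks and 194.0 kb for the common wide peaks. Within 10 kb of H3K27me3 were 38 of the regions (2.49%, 1.77 to 3.40) and 378 common wide peaks (2.85%, 2.58 to 3.15), and within 100 kb 32.7% (30.3 to 35.1) and 31.3% (30.6 to 32.1). By the median, the ES48-only wide peaks lay farther from ES49 H3K27me3, at 302.6 kb. Within 100 kb of it were 25.3% of them (23.8 to 26.8). At short range the order was the other way. Within 10 kb were 3.71% of the ES48-only wide peaks (3.10 to 4.40), an interval that overlaps that of the regions. Within 5 kb were 1.99% of them (1.544 to 2.52) and 0.918% of the regions (0.503 to 1.536).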

How the data were processed

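The deposited files are peak lists, 1 per antibody and line. Per the submitters' processing notes, Bowtie 1.1.1 and SAMtools 1.2 were used and the build is mm9. Peak names start with MACS, with version, settings and control not given in the sources used here. Every peak carries a score by the authors' peak caller, whose scale is not stated and which was compared only within a list. The authors' lists were used as deposited, so a peak just under their threshold counts as absent. Peak start and end, the other deposited values, gave widths and distances.

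Distances were taken between peak edges, with 0 for peaks that share at least 1 bp; the code was tested on simulated intervals and against bedtools 2.31.1. Tables were handled with pandas 2.3.3 and numpy 2.4.6, intervals came from scipy 1.17.1 and figures from matplotlib 3.10.9, under Python 3.11.15. The regions and lists were chosen with earlier results of these data known. Regions named are the 10 widest, highest-scoring and farthest from ES48 H3K27ac, the 5 runs with the most covered length, and those within 10 kb of ES49 EWS-FLI1 (up to 10); regions in the long stretches or near ES48 EWS-FLI1 were named after their values were seen. The planned comparisons with transcription starts, gene lists, base composition and motifs need mm9 annotation or sequence, and only GRCm38 tables were at hand, so they were left out. ES49 input DNA was not analysed here.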

Additional observations from a re-analysis of the deposited data

How the results depend on the processing

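The number of regions, 1525, was 2681 with a width limit of 600 bp, 978 with 1000 bp, 342 with 1500 bp and 3609 when only the upper 50% of ES48 peaks by score counted as overlap. With less than 50% of the peak covered by ES48 H3K27ac it was 1965, within 1.5 times. The share more than 12500 bp from ES48 H3K27ac, 49.2%, was 45.1% from 600 bp, 54.8% with no ES48 peak within 1 kb, 38.2% under the 50% cover rule, 59.2% against the upper 50% of ES48 peaks and 51.8% for regions in the upper 50% of the ES49 list by score. It was 68.7% at 5 kb and 19.1% at 50 kb. The share with another region within 12500 bp, 23.5%, was 36.0%, 19.6% and 11.7% with width limits of 600, 1000 and 1500 bp. It was 29.3% under the 50% cover rule, 33.1% against the upper 50% of ES48 peaks and 20.1% for the upper 50% by score, and 17.6% at 5 kb and 40.5% at 50 kb. The ES49 EWS-FLI1 share was 0 for overlap, 1.90% within 50 kb, and 0.219 to 0.585% under every other alternative run. Other H3K27me3 distances moved none of these past its interval. The 3369 ES48-only wide peaks became 1426 with the width limit set by share of the list, and the chromosomes with the larger line-only share in ES49 then numbered 7 in place of 1. No paired analysis was possible because each line has 1 library per antibody and no test was run. The alternatives on transcription starts were not run. Depth is unknown, so an absent peak may be a missed one, and this was not tested.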
